A study of Mus musculus with 2 samples.

Results

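The genes described here are Mir451a, Mir144 and Mir486, the 3 microRNA genes best known from red blood cells. They were taken by name, and all 3 were found among the 1973 gene rows of a microRNA sequencing data set from mouse embryonic kidney. The data set holds 1 group of 2 small RNA libraries, both from kidneys of healthy B6NCrl embryos at embryonic day 16.5, with males and females pooled. Replicate 2 came from 41 embryos, while the sources used here do not say how many stand behind replicate 1. The sample labels call the libraries biological replicates 1 and 2. Both libraries also carry the same donor record, so the spread between them may be partly technical. Every comparison between them is one of these 2 pools and not of conditions. Sense reads in gene rows numbered 5317669 in replicate 1 and 7128703 in replicate 2. A gene counted as detected at 1 read per 1000000 sense reads in gene rows (CPM) or more in both libraries, which 387 of the 1973 rows reached. Of the microRNA genes of kidney epithelium 9 of 9 with a row were detected, with summed levels of 26765 and 27269 CPM. The liver gene Mir122 and 16 of 16 genes linked to red cell formation with a row were detected too. Detection therefore cannot single out kidney.

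Mir144 and Mir451a are made from 1 primary transcript that the transcription factor GATA1 switches on as red cells mature. Loss of the pair leaves red cells sensitive to oxidative stress, in part through the miR-451 target Ywhaz. Most microRNA precursors are cut by Dicer, whereas the precursor of miR-451 is too short for Dicer and is cut by the Argonaute protein Ago2. Mir486 lies in the ankyrin gene Ank1, which encodes a protein of the red cell skeleton, and is abundant in red cells and in striated muscle. At this stage of development the liver makes most red cells, which reach the kidney with the blood.

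The sequences show how the erythroid products differ in form. They are RefSeq sequences on GRCm38.p6, the build also called mm10, for 2 of the 3 genes, written 5′ to 3′. In the mature sequences the capitals mark the seed, bases 2 to 8, which pairs with target messenger RNAs. In the hairpins the capitals mark the mature microRNAs.

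mmu-miR-451a: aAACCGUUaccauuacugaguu

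mmu-miR-144-5p: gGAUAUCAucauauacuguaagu

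mmu-miR-144-3p: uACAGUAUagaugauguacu

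Mir451a hairpin: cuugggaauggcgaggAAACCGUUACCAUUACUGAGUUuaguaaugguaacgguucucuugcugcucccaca

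Mir144 hairpin: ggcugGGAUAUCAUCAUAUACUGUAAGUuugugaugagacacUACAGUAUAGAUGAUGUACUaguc

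The 3 seeds differ from one another, and none of them was the seed of another gene's mature sequence among the 1738 searched. With the seed shortened to bases 2 to 7, miR-144-3p shared ACAGUA with miR-101a-3p of Mir101a, which stood at 83.1 and 106 CPM in replicates 1 and 2. Mir101a was named after its values were seen.

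In the fold predicted for the Mir451a hairpin of 72 nt, mature miR-451a ran from position 17 to position 38 and so took in the whole terminal loop, positions 35 to 38. Of its 22 bases, 17 were paired and 4 lay in the loop. In the predicted fold of the Mir144 hairpin of 66 nt, neither mature sequence touched the loop at positions 31 to 36. There miR-144-5p had 20 of 23 bases paired and miR-144-3p had 19 of 20. Over all hairpins of the RefSeq table, 11 of 1634 mature sequences (0.673%) took in a whole hairpin loop, miR-451a among them. Any hairpin loop of a predicted fold counted here, also one that was not terminal.

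**Figure D1:**
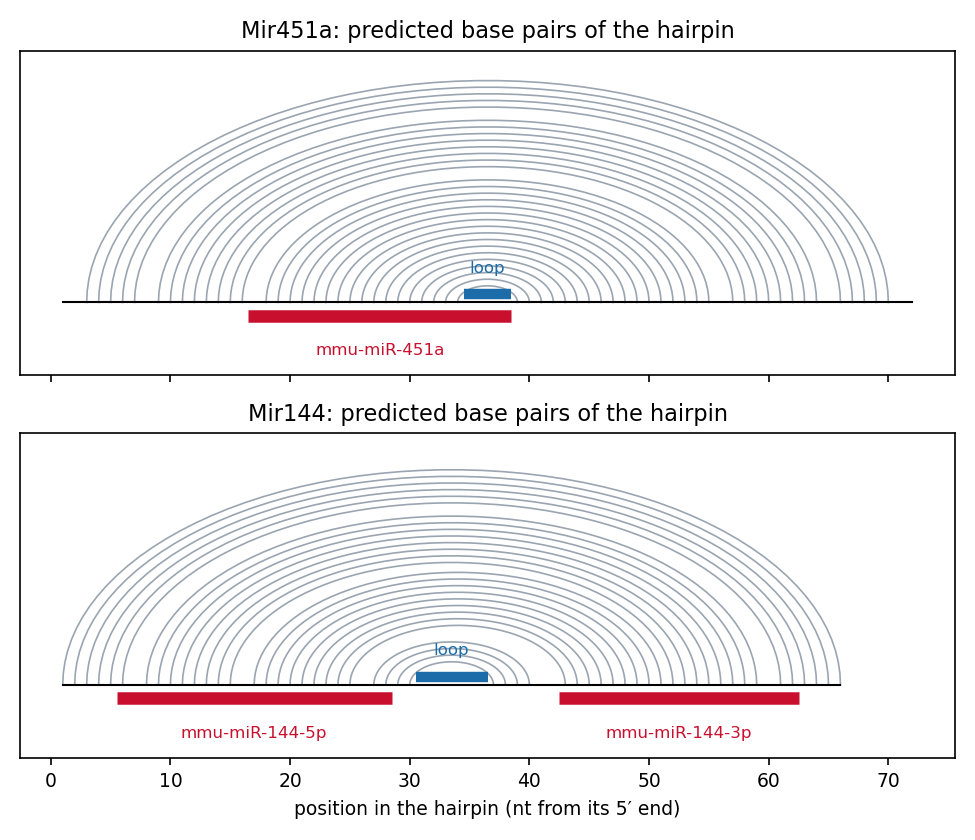
Predicted base pairs of the Mir451a hairpin (top) and the Mir144 hairpin (bottom), against the position in nt from the 5′ end of each hairpin. Each arc joins 2 paired bases, the red bars are the mature microRNAs and the blue bars the terminal loop. The bar of miR-451a runs from position 17 to 38 and covers the loop, while the bars of miR-144-5p and miR-144-3p stop on either side of it.

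Mir144 and Mir451a lie 99 bp apart on the plus strand of chromosome 11 (mm10), Mir144 from 78073005 to 78073070 and Mir451a from 78073170 to 78073241. Neither overlaps a protein-coding gene. The nearest, Eral1, lies 134 bp beyond Mir451a on the opposite strand. Mir451b, the other microRNA gene of the locus, covers the same positions as Mir451a on the minus strand and has no row of its own in the tables used here. No read fell on the strand opposite to Mir451a in either library, so any minus-strand product stayed under the limit that a count of 0 allows, 0.564 CPM in replicate 1 and 0.421 CPM in replicate 2.

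Mir486 lies on chromosome 8 from 23142555 to 23142682 on the plus strand, in an intron of Ank1 and of the antisense gene Gm15816. Another microRNA gene, Mir3107, overlaps it on the minus strand and likewise has no row. The 128-nt Mir486 precursor in GENCODE holds a stretch of 22 nt whose reverse complement also lies in that precursor. A read within that stretch matches both strands of the locus. The corresponding longest stretch was 16 nt in Mir451a and 9 nt in Mir144, with a median of 7 nt over the 1894 genes that have a row and a precursor. The deposited tables count reads with several mapping places outside the gene rows, and these made up 28.0% and 25.3% of all reads in replicates 1 and 2, so the level of Mir486 is uncertain. How many of its reads were lost in this way was not tested. Among the 84 genes with such a stretch of 18 nt or more, 3 (3.57%) had at least 10 reads over both libraries, against 24.0% of the 1894 genes. Besides Mir486 these were Mir374b, with 2512 and 4326 reads in replicates 1 and 2, and Mir299b, with 6 and 9. Both were named after their values were seen. Most of the 84 genes had no read on either strand, and the cause of their lower share was not tested.

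Mir451a had the most reads in gene rows of the 3 genes. It was counted with 1234 reads in replicate 1 and 2256 in replicate 2, or 232 CPM (exact Poisson 95% interval 219 to 245) and 316 CPM (304 to 330). Its mean was 274 ± 59.7 CPM (SD, n = 2), and the libraries' counting intervals did not overlap, replicate 2 being the higher. A read stands for 1 mature microRNA of similar length in each gene, so levels were compared without scaling to length.

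Mir144 had 377 and 751 reads, or 70.9 CPM (63.9 to 78.4) and 105 CPM (97.9 to 113), with a mean of 88.1 ± 24.4 CPM (SD, n = 2). Again replicate 2 was higher and the intervals did not overlap. The row sums miR-144-5p and miR-144-3p, so the levels of the arms cannot be given separately.

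Mir486 had 51 and 85 reads, or 9.59 CPM (7.14 to 12.6) and 11.9 CPM (9.52 to 14.7), with a mean of 10.8 ± 1.65 CPM (SD, n = 2). Its intervals overlapped. Together the 3 genes took 0.0313% (0.0298 to 0.0328) of the sense reads in gene rows in replicate 1 and 0.0434% (0.0419 to 0.0449) in replicate 2. Within that sum the makeup was much the same in both libraries, with Mir451a at 74.2% and 73.0%, Mir144 at 22.7% and 24.3% and Mir486 at 3.07% and 2.75%. In whole tissue, fewer red cells and less microRNA per red cell cannot be told apart.

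**Figure D2:**
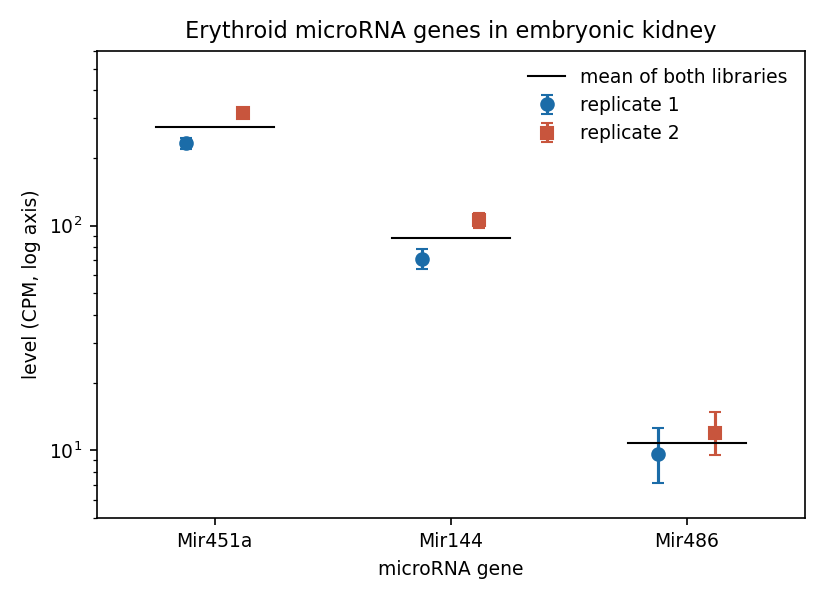
Level of Mir451a, Mir144 and Mir486 in CPM on a log axis, in replicate 1 (blue circles) and replicate 2 (red squares), with exact Poisson 95% intervals for counting error and the mean of both libraries as a black line. Mir451a lies at 232 and 316 CPM, Mir144 at 70.9 and 105 CPM and Mir486 at 9.59 and 11.9 CPM. The intervals of the libraries are apart for Mir451a and Mir144 and overlap for Mir486.

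Among all 1973 gene rows Mir451a ranked 126 by mean level, Mir144 ranked 187 and Mir486 ranked 274. Next to Mir451a in this order were the skeletal muscle gene Mir206 at 277 ± 14.1 CPM and Mir125b-2 at 270.4 ± 6.21 CPM (SD, n = 2). Mir144 stood between Mir574 at 93.6 ± 29.1 CPM and Mir376c at 85.8 ± 13.7 CPM, and Mir486 between Mir6944 at 10.9 ± 2.18 CPM and Mir1968 at 10.7 ± 0.523 CPM. The spread between libraries over genes of 100 to 1000 CPM was 0.27 on the log2 CPM scale, so that a fold under 1.44 between a pair of genes lies within it, and 1.46 for genes of 10 to 100 CPM. None of these 6 neighbours differed from its member beyond that spread, the largest fold being 1.06 for Mir574 over Mir144. The gaps between the members themselves were wider than this.

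Mir451a exceeded its neighbour Mir144 3.27-fold (exact 95% interval 2.91 to 3.68) in replicate 1 and 3.00-fold (2.76 to 3.27) in replicate 2. This ratio of counts needs no scaling between libraries. It changed by a log2 of -0.12 from replicate 1 to replicate 2, with an exact interval of -0.33 to 0.08 that includes no change. Mir451a exceeded Mir486 24.2-fold (18.3 to 32.7) and 26.5-fold (21.4 to 33.4), a log2 change of 0.13 (-0.41 to 0.66). Mir144 exceeded Mir486 7.39-fold (5.51 to 10.1) and 8.84-fold (7.05 to 11.2), a log2 change of 0.26 (-0.31 to 0.81). All 3 intervals include no change, and the wide ones that involve Mir486 leave room for a change of about the size seen for the members between libraries. The ratios to Mir486 rest on reads in gene rows only. They leave out any of its reads with several mapping places, whose number was not tested.

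The Mir451a to Mir144 ratio was set beside the ratios of other neighbouring microRNA genes on 1 strand at most 10 kb apart. Over the 104 such pairs with at least 10 reads per gene, the interval of the change left out 0 in 49 pairs (47.1%), and the median size of the change was 0.23 log2. A smaller change than that of the erythroid pair was found in 30 of the 104. Precision grows with depth, so the count was repeated on pairs whose lower gene had at least 500 reads, a limit chosen after the data were seen. There 34 of 53 pairs (64.2%) left out 0, the median change was 0.14 log2, and 22 pairs changed less than the 0.12 of Mir144 and Mir451a. The erythroid pair thus belonged to the pairs whose ratio was not shown to change, with a size of change near the median of well-counted pairs. Genes of a cluster enter in several pairs, so the pairs are not independent.

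The pair was also close in level. The higher gene stood 8.36-fold and 7.20-fold above the lower one in the median pair of replicates 1 and 2, and 32 and 30 of the 104 pairs were closer together than Mir451a and Mir144.

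**Figure D3:**
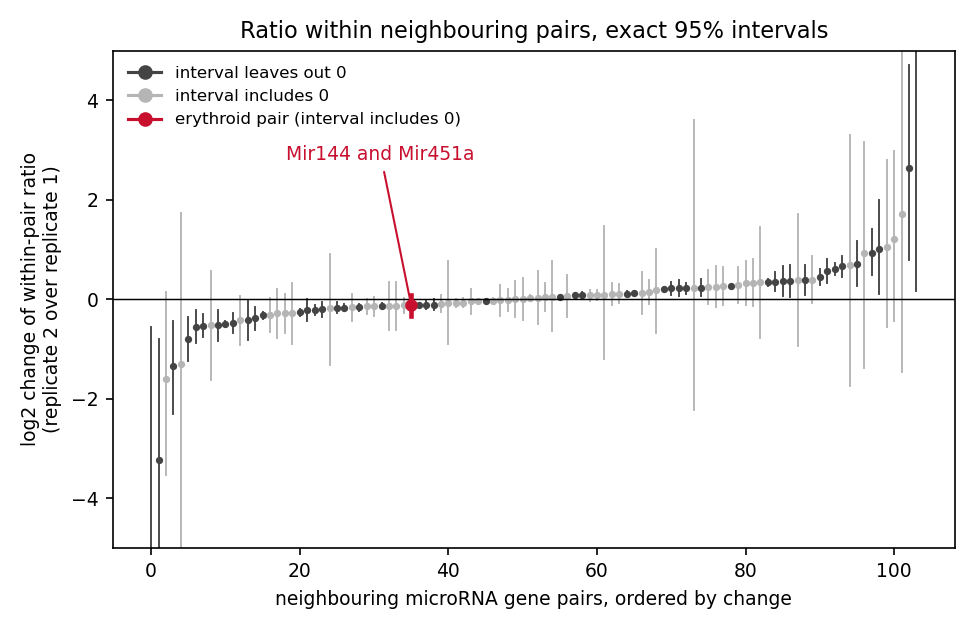
Change of the ratio within each of the 104 neighbouring microRNA gene pairs, as log2 of replicate 2 over replicate 1 with exact 95% intervals, ordered by size. The axis ends at 5 log2 in either direction, longer intervals are cut there, and 2 pairs with a gene at 0 reads in a library have no point on it. The pair of Mir144 and Mir451a (red) is at -0.12 with an interval that includes 0, as in the pairs drawn in light grey, while the 49 dark pairs leave out 0.

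Relative to other microRNAs, Mir451a and Mir144 were higher in replicate 2. With TMM scaling, which sets the bulk of genes equal between libraries, the ratio of replicate 2 to replicate 1 was 1.23-fold for Mir451a, which is 0.30 on the log2 scale (counting standard error 0.05). For Mir144 it was 1.35-fold, or 0.43 in log2 (counting standard error 0.09). Both passed the two-sided exact binomial test adjusted by Benjamini-Hochberg over all 455 genes with at least 10 reads (adjusted p = 1.2e-08 and 1.1e-05), in which 15.8% of the genes were called higher. Mir486 stood at 0.17 (counting standard error 0.26) and did not pass (exact binomial test, adjusted p = 0.687), and its 95% interval of -0.33 to 0.67 contains the values of both others. The median over the 455 genes was 0.02.

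This test takes in counting error only. In the edgeR exact test with a biological coefficient of variation (BCV) of 0.2 for the spread between pools, the adjusted p was 1 for each of the 3 genes (unadjusted 0.463 for Mir451a, 0.31 for Mir144 and 0.751 for Mir486), and 0.659% of the genes were called. With library totals in place of TMM, all log2 ratios rise by 0.14 and the median over all genes by the same amount, and the folds were 1.36 for Mir451a, 1.49 for Mir144 and 1.24 for Mir486. Of all genes called by the binomial test, 47.1% were higher in replicate 2 with TMM and 78.8% with library totals.

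In 208 genes the mean level reached 50 CPM. Of these, 17 had a log2 ratio at least as high as that of Mir451a, with Mir451a itself and Mir144 counted in. For Mir144 the number was 9, with Mir144 itself counted in. The genes closest to Mir451a in this ratio were Mirlet7c-1 at 0.30, Mir92b at 0.30 and Mirlet7a-2 at 0.31. Those closest to Mir144 were Mir541 at 0.47, the smooth muscle gene Mir145a at 0.47 and Mir362 at 0.48. Among 207 genes ordered by closeness to Mir451a, Mir144 came at place 23, and Mir451a came at place 14 in the order for Mir144. Closeness here is a difference of log2 ratios over 2 libraries, which many genes can share.

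**Figure D4:**
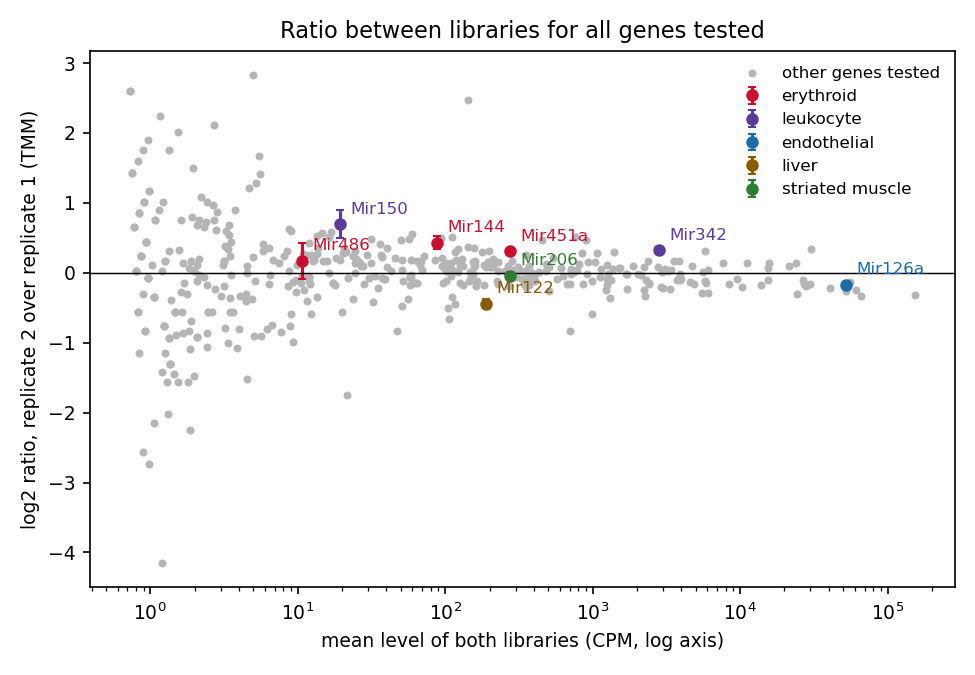
Log2 ratio of replicate 2 over replicate 1 with TMM scaling against the mean level in CPM (log axis), for the tested genes with reads in both libraries. Bars on the named genes are the counting standard error. Mir451a (0.30) and Mir144 (0.43) lie above the line of no difference, Mir486 (0.17) has a bar that crosses it, and the liver gene Mir122 lies below it.

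MicroRNA genes of other blood cells and of neighbouring tissues were read beside the erythroid genes, using the binomial test unless another is named. The edgeR exact test with a BCV of 0.2 called 0 genes of these lists, and over all 455 genes 18 had an unadjusted p under 0.05 in it. In the leukocyte and platelet list 2 of 5 tested genes were called higher in replicate 2 and 1 lower, against 33.6% of all genes called in either direction, and the list's median log2 ratio was 0.10. With library totals 4 of the 5 were called higher and 0 lower, where 33.4% of all genes were called higher. The 7 genes with a row summed to 3053 CPM in replicate 1 and 4048 CPM in replicate 2, and Mir451a amounted to 0.0760 and 0.0782 of that sum. The genes called higher were Mir342, known from lymphoid cells, at 2352 and 3252 CPM (log2 ratio 0.32), and Mir150, of mature lymphocytes, at 13.9 and 24.8 CPM (0.69). Mir146, the gene of miR-146a, which acts in innate immune signalling, stood at 134.6 and 131 CPM and was called lower (-0.18), but was not called with library totals (-0.03). Of the defining genes, Mir142 has no row, and Mir142b was at 0.

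The liver microRNA Mir122 went the other way. Its levels were 210.1 and 171 CPM in replicates 1 and 2, and its log2 ratio of -0.44 passed the binomial test (adjusted p = 1.7e-12) and kept its sign with library totals (-0.30), but had an adjusted p of 1 in the edgeR exact test. The ratio of Mir451a to Mir122 was 1.10 in replicate 1 and 1.85 in replicate 2. The endothelial gene Mir126a stood at 52631 and 51554 CPM. Its log2 ratio was -0.17 with TMM and only -0.03 with library totals, called lower with either scaling. Mir126b has no row. The part of blood, vessel or liver content in the higher erythroid levels was not tested.

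Striated muscle also uses Mir486, so its genes were counted as well. By the binomial test 0 of the 6 tested muscle genes were called, the closest being Mir208a at -0.90 (exact binomial test, adjusted p = 0.0525), a gene named after its value was seen. Over all genes 33.6% were called in either direction. With library totals 1 muscle gene was called higher, where 33.4% of all genes were called higher. The list summed to 304 and 326 CPM, nearly all of it Mir206 at 267 and 287 CPM, while Mir1a-1, Mir133a-1 and Mir133a-2 were at 0 in both libraries. An 18-nt stretch in common with another microRNA gene, which can lower a count, was found in 4 of the 9 muscle genes with a row. Mir1a-1, Mir133a-1 and Mir133a-2 are among these, so their counts of 0 do not show that they were absent. The part of muscle in the Mir486 level was not tested.

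Among 16 microRNA genes linked to red cell formation that had a row, 4 were higher and 1 was lower in replicate 2 by the binomial test, with a median log2 ratio of 0.06. The 5 genes called of 16 are a share near the 33.6% called over all genes. With library totals 12 were called higher and 0 lower, against 33.4% of all genes called higher. The list shares Mir150, Mir155 and Mir223 with the leukocyte list. The higher ones included Mir320 at 438 and 526 CPM (0.12), Mir16-2 at 254 and 315 CPM (0.17) and Mir27a at 131 and 185 CPM (0.36). The last of them was Mir150, already given. Mir16-1, which makes the same mature microRNA as Mir16-2, stood at 1227 and 1268 CPM and was called lower (-0.10), but its sign turned with library totals (0.05). For 6 of the 16 genes, Mir16-1, Mir16-2 and Mir27a among them, at least 18 nt of the precursor recur at a different locus. Reads that map to both places are counted outside the gene rows, so the levels of these 6 are uncertain. How many of their reads were lost in this way was not tested. The list summed to 11451 and 12716 CPM, and the level of Mir451a was 0.0203 and 0.0249 of that sum.

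In kidney epithelium 5 of 9 genes were called lower and none higher, with a median of -0.11, where 17.8% of all genes were called lower. The highest of those called were Mir429 (-0.10), Mir200b (-0.16), Mir200c (-0.13) and Mir141 (-0.15), all of the epithelial miR-200 family. With library totals Mir429 and Mir200c turned to 0.04 and 0.02, and 3 genes of the list were called higher and none lower, so the direction of this list rests on the scaling. That of Mir451a and Mir144 did not, with log2 ratios from 0.29 to 0.45 and from 0.41 to 0.57 over the 3 scalings.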

How the data were processed

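Small RNA was sequenced in 2 libraries of pooled embryonic kidneys. Per the deposited text files, reads were assigned to microRNA genes of annotation M4 on mm10, and the authors left these as unscaled counts. Aligner, counter and trimming: not given in the sources used here. No names head the 3 count columns. They were taken as either strand, the gene's strand and the opposite strand, because the first is the sum of the others in every gene row, and the gene's strand was used. Rows that name no gene held 55.2% and 51.5% of the reads and were left out.

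Symbols came from GENCODE M21 on GRCm38 by Ensembl identifier, which matched 1894 of 1973 rows. CPM used all sense reads in gene rows. Intervals and the floor of 3 reads cover counting error only, since reads carry no molecular identifiers. Libraries were compared over the 455 genes with at least 10 reads with an exact binomial test on TMM-scaled totals (edgeR 4.0.16, factors 0.952 and 1.05, R 4.3.3), Benjamini-Hochberg adjusted at 0.05, because 1 library per side leaves the edgeR quasi-likelihood test no residual degrees of freedom. Alternatives were library totals, DESeq2 1.42.0 size factors, the edgeR exact test with a BCV of 0.2, other filters and either-strand reads. The tests were tried on simulated data first. Ratios between members and within neighbouring pairs carry exact conditional 95% intervals. Hairpins were folded with RNAfold 2.7.2.

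Named were the members, microRNA genes within 50 kb or sharing sequence, neighbours in level, the 3 closest log2 ratios at 50 CPM or more, and up to 4 called genes per list, or else its most abundant gene. Of the lists, Mir24-1, Mir191, Mir376a, Mir142, Mir1a-2, Mir126b, Mir451b, Mir486b (Mir3107 in RefSeq) and Mir4732 have no row and were not analysed here. Mir146a was found as Mir146 through its RefSeq synonym. Members and lists were chosen with earlier results of these data known.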

Additional observations from a re-analysis of the deposited data

Results flagged for a closer look

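Reads on the strand opposite to a gene enter no level above. Opposite to Mir486, where Mir3107 is annotated, lay 4 reads in replicate 1 and 8 in replicate 2, above the 3 reads that a count of 0 allows, or 7.27% and 8.60% of the reads on either strand. Opposite to Mir142b, where Mir142 of blood cells is annotated, lay 2176 and 3442 reads, or 409 and 483 CPM, while Mir142b itself had none on its own strand. The leukocyte sum therefore leaves out these reads. The gene to which either set of reads belongs was not tested.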

How the results depend on the processing

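Of 51 alternative values for 12 results, 44 were counted as unchanged, and none reversed. For log2 ratios this meant the same direction and the same side of the threshold. For levels, ratios between genes and the share it meant a value within the SD of the 2 libraries. With a library left out this was fixed in advance, since the mean of 2 libraries then moves by less than their SD. Those values therefore do not test robustness. Counts of called genes and pairs have no such SD, and the 193 genes called with library totals against 153 were among the 44. With the edgeR exact test at a BCV of 0.2 the log2 ratios of 0.30 for Mir451a and 0.43 for Mir144 no longer passed (adjusted p = 1 for both, against 1.1e-07 or less and 2.9e-05 or less in their other alternatives), and 3 genes were called in place of 153. With library totals 78.8% of called genes were higher, against 47.1% with TMM. Per 1000000 of all reads in the tables, in gene rows or not, levels were 129 for Mir451a, 41.4 for Mir144 and 5.04 for Mir486. With either-strand reads Mir451a exceeded Mir486 23.3-fold. Leaving out a library moved Mir451a between 232 and 316 CPM, Mir144 between 70.9 and 105, Mir486 between 9.59 and 11.9, the ratio of Mir451a to Mir144 between 3.00 and 3.27, that of Mir451a to Mir486 between 24.2 and 26.5, that of Mir144 to Mir486 between 7.39 and 8.84, and the share of the 3 genes between 0.0313% and 0.0434%. Without Mir10a reads that share was 0.0441%. No paired analysis was possible because the series holds 1 group. Counting error was widest for Mir486 among the 3 genes, with 51 and 85 reads. Reads with several mapping places lie outside the gene rows, so the level of Mir486 is uncertain beyond that error.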
